A study of Mus musculus with 10 samples.

Results

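The genes described here encode the ligands of the Wnt pathway, the proteins that let cells secrete them, and the receptors and extracellular inhibitors that decide which cells respond. They were chosen by name: every protein-coding gene of the count table whose symbol began with Wnt or Fzd and a number, Sfrp1 to Sfrp5, Dkk1 to Dkk4, and Wls, Porcn, Lrp5 and Lrp6. This gave 41 of the 57010 genes of the table, made up of 19 ligands, 2 secretion factors, 10 Frizzled receptors, 2 LRP co-receptors, 4 secreted Frizzled-related proteins and 4 Dickkopf proteins. The data were poly(A) RNA sequencing counts from untreated whole mammary tumours of mice, 5 labelled PyMT; RHBDL4 -/- (knockout) and 5 with the wild-type genotype PyMT; RHBDL4 +/+, all taken 5 weeks after tumour onset. All 10 tumours carried MMTV-PyMT, a transgene that expresses the polyomavirus middle T oncogene mainly in mammary epithelium, so no sample was free of the oncogene. The labels give the knockout as lacking RHBDL4, a rhomboid protease encoded by Rhbdd1, and name no tissue or time for the deletion. The ages of the animals are not stated in the labels.

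Wnt ligands carry a lipid that is attached in the endoplasmic reticulum by Porcn, and Wls escorts them to the cell surface. There they bind a Frizzled receptor, with Lrp5 or Lrp6 as co-receptor when the signal runs through beta-catenin, while ligands such as Wnt5a mostly act on other branches. Secreted Frizzled-related proteins bind the ligands, and Dickkopf proteins block the LRP co-receptors. In the mammary gland Wnt4 drives ductal side branching under progesterone, and Wnt1 was found as a gene activated by insertion of mouse mammary tumour virus.

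Levels are given in CPM, the counts of a gene per M (mega) counts of the library after TMM scaling (a correction for differences in library make-up). Values of single libraries are listed in the order of replicates 1 to 5, and libraries held 25.7 to 43.3 M counts. Replicate numbers were given here in the order of the samples and are not in the labels. As a check of the genotype labels, Rhbdd1 stood at 22.3, 15.1, 17.3, 13.2 and 16.8 CPM in knockout replicates 1 to 5 and at 45.4, 38.6, 33.7, 33.5 and 25 CPM in wild-type replicates 1 to 5. No knockout library reached the lowest wild-type library (2-sided exact permutation p = 0.00794, the smallest possible for 5 against 5), nor did any without wild-type replicate 5 (exact permutation p = 0.0159). Knockout libraries thus kept 48.1% of the wild-type mean, or 44.9% without wild-type replicate 5, and the region of the gene that the remaining reads cover cannot be read from a gene count. Without scaling, wild-type replicate 5 was at 14.7 CPM, within the 13.4 to 24 CPM of the knockout libraries, so the lack of overlap over all 10 libraries rests on its scaling. In edgeR's quasi-likelihood test the log2 fold change of -1.05 ± 0.20 (SE) was not called (adjusted p = 0.669). Tissue markers stood apart in 3 wild-type libraries, and knockout replicates 2 and 4 differed too. Their 7 adipocyte markers summed to 1550 and 1730 CPM, against 28.9 to 86.9 CPM in the other knockout libraries. Knockout replicate 4 also had 1450 CPM of skeletal muscle markers, against 3 to 156 CPM in the other knockout libraries. Wild-type replicate 5 had a scaling factor of 0.588 against 1.01 to 1.10 elsewhere. Its summed level of 12 luminal epithelial markers was 169 CPM against 4860 to 8700 CPM in the other 9 libraries, and its 9 skeletal muscle markers summed to 131000 CPM against at most 1450 CPM. Epcam, an epithelial adhesion protein that marks mammary tumour cells, was at 29.1 CPM in that library against 1040 CPM or more in the others. Wild-type replicate 1 was poor in fibroblast markers (10 genes, 210 CPM, with Dcn at 0.483 CPM), and wild-type replicate 2 was low in them too (1810 CPM) but had the highest sum of 9 basal markers (819 CPM), which came mostly from its keratins and Trp63 and not from the contractile genes of the list. Fibroblast markers summed to 4080 CPM or more in the remaining 8 libraries. The comparison was therefore made with and without wild-type replicate 5. Library names share a leading number in 3 pairs, which are replicates 3 and 4 of the knockout and, in wild type, replicates 1 and 2 as well as 3 and 4, and the labels do not say what it marks. Each library also has its own batch label, and if it marks a batch, batch and group cannot be told apart. The tissue is a mixture, so fewer cells of a type and less RNA per cell cannot be told apart.

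Of the 41 genes, 30 were expressed, here meaning a mean of 1 CPM or more in knockout or in wild type, against 63.0% of the 21880 protein-coding genes of the table. The expressed set held 10 ligands, both secretion factors, all 10 Frizzled receptors and both LRP co-receptors. It also held all 4 Sfrp genes of the set, and Dkk2 and Dkk3. In every single library 19 of them reached 1 CPM: Wnt5a, Wnt5b, Wnt9a, Porcn, Wls, Lrp5, Lrp6, Sfrp1, Sfrp2, Dkk3 and the Frizzled genes other than Fzd10. The genes below that level were Wnt1, Wnt3, Wnt3a, Wnt7a, Wnt8a, Wnt8b, Wnt9b, Wnt10a, Wnt16, Dkk1 and Dkk4. Wnt8b had 1 count over all 10 libraries. A level of 3 counts corresponded to 0.0644 to 0.2 CPM, so lower values were not told from 0 at this depth. Only wild-type means reached 1 CPM for Wnt2, Wnt6, Wnt10b, Fzd10 and Sfrp5, and only the knockout mean for Wnt2b (1.39 against 0.953 CPM). For Sfrp5 this rested on wild-type replicate 5, without which the wild-type mean was 0.323 CPM, and for Wnt6 on wild-type replicate 2, without which it was 0.373 CPM. The wild-type mean of Wnt2b was 1.01 CPM without wild-type replicate 4.

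**Figure D1:**
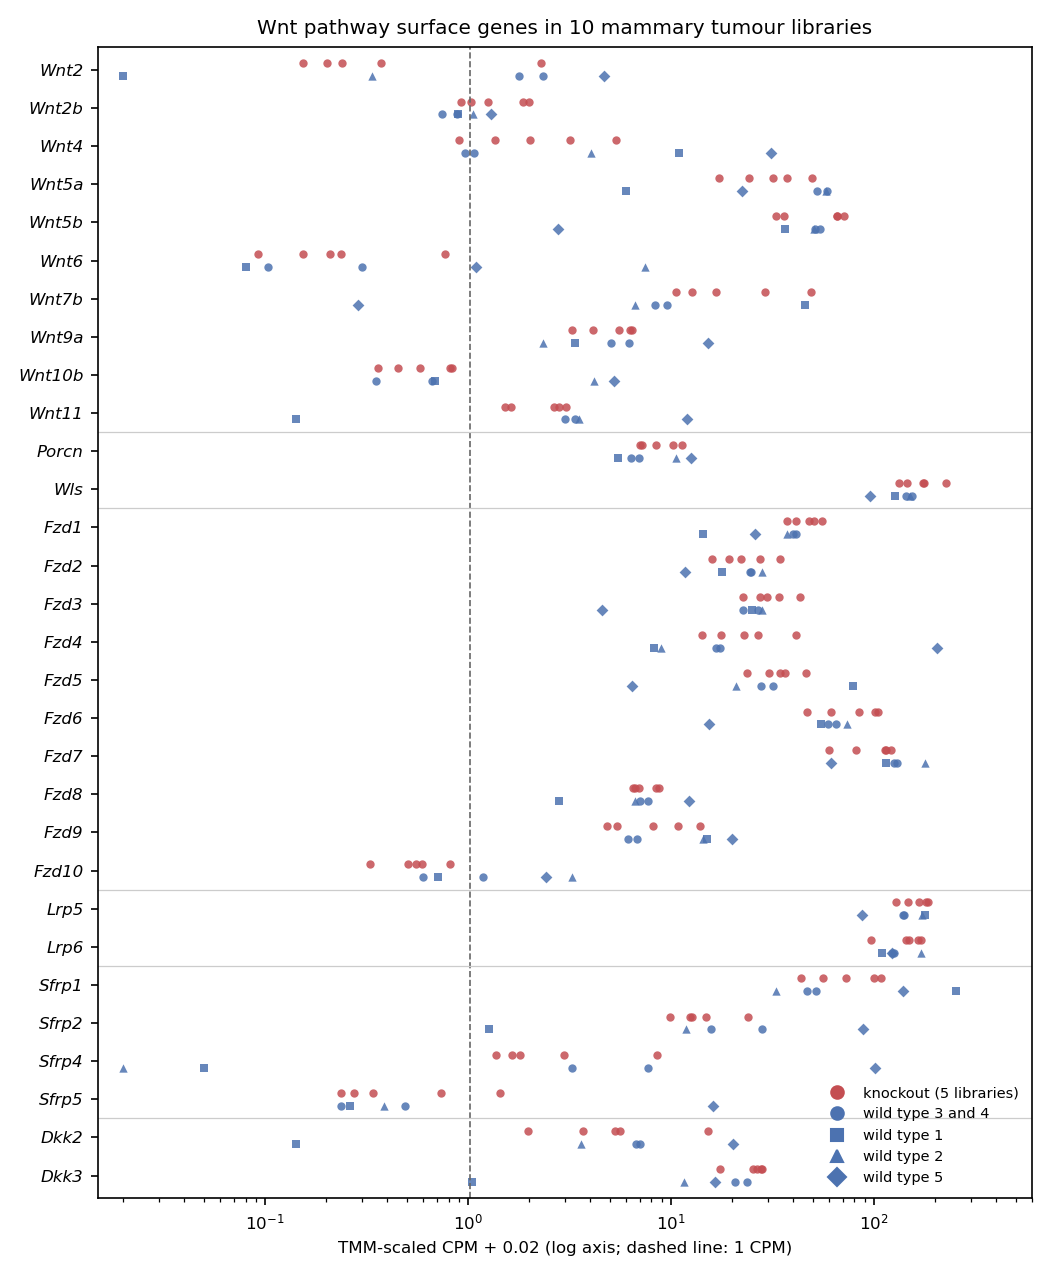
Level of each of the 30 expressed genes of the set in each of the 10 libraries, as CPM on a log axis. A small constant is added so that zeros can be drawn. Knockout and wild-type libraries have separate colours, and the dashed line marks 1 CPM. For 19 genes all 10 points lie at or right of the line, and the points of wild-type replicate 5 lie at the edges of many rows.

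Compared per kb of exon, which allows levels of different genes to be set beside each other, Wnt5b, a ligand of the branch outside beta-catenin, was the main ligand transcript of these tumours. It supplied 48.6% to 71.5% of the summed level of the 19 ligands in 9 libraries and 4.37% in wild-type replicate 5. Its level was 24.6, 13.6, 26.8, 12.4 and 24.6 CPM per kb in the knockout libraries and 13.7, 19.1, 20.4, 19.2 and 1.03 CPM per kb in the wild-type libraries. Without wild-type replicate 5, the next ligands by median were Wnt5a (4.78 CPM per kb against 19.2 for Wnt5b), Wnt7b (2.59) and Wnt9a (1.51). In wild-type replicate 5 the ligands were of another make-up, led by Wnt4 (31.6%), Wnt9a (19.3%) and Wnt11 (12.2%). The summed ligand level was 25.1 to 44.3 CPM per kb in knockout and 23.6 to 37.9 CPM per kb in wild type. Wild-type replicate 1 also had its own mix, with 33.2% Wnt7b and 2.72% Wnt5a.

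**Figure D2:**
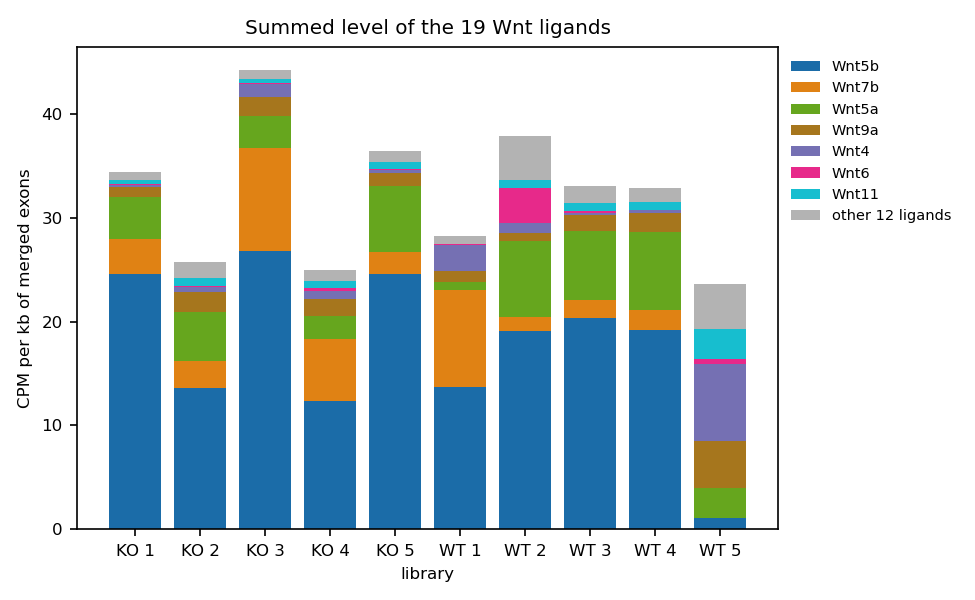
Summed level of the Wnt ligands in each library in CPM per kb of exon, with 7 ligands drawn in colour and the other 12 together. Wnt5b is the largest block in the 9 libraries other than wild-type replicate 5, where Wnt4 is.

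Receptor levels differed widely from gene to gene. Among Frizzled receptors the median over the 9 libraries was 25.4 CPM per kb for Fzd7, 13.5 for Fzd6 and 9.81 for Fzd1. The lowest Frizzled median was 0.179 CPM per kb, for Fzd10. Outside the Frizzled genes the median was 17.2 for Lrp5 and Wls, 10.4 for Lrp6, 12.8 for Sfrp1 and 7.04 for Dkk3. Per kb, Frizzled transcripts summed to 55.9 to 86.1 CPM per kb across all 10 libraries, a range in which both groups overlapped.

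None of the 30 tested genes of the set was called between knockout and wild-type tumours, and the 2 groups overlapped for each of them. edgeR called 0 of 30 with all 10 libraries, where it called 0% of 18577 genes, and 0 of 30 without wild-type replicate 5, where it called 0.0105% of 19016 genes. DESeq2 and limma-voom also called 0 of the 30 in either set of libraries. Without adjustment, 2 of 30 had p under 0.05 with all 10 libraries (Fzd10 and Wnt10b) against 7.00% of all genes, and 3 of 30 without wild-type replicate 5 (Fzd4, Fzd10 and Wnt2b) against 11.6% of all genes. DESeq2 gave 3 and 3 such genes, where 1635 of 18577 and 2574 of 19016 of all genes had p under 0.05. The limma-voom counts were 4 and 4, against 3491 and 3524 of the same totals. limma-voom with the leading number as a random block gave 0 of 30 in either set, against 324 and 1182 over all genes. Starting from the 9 libraries, leaving out wild-type replicate 2 gave 0 of 30, against 1848 of 19424 genes. Leaving out wild-type replicate 1 instead gave 6 of 32, against 2125 of 19548. Groups without any overlap were found for 0 of the 30 in either case, against 1.99% of all genes with 10 libraries and 5.62% with 9. With all 10 libraries 14 of the 30 had a higher and 16 a lower value in knockout, with a median log2 fold change of -0.27 against -0.06 over all genes. Leaving out wild-type replicate 5 gave 19 higher and 11 lower and a median of 0.17 against 0.03. Wnt16 was tested but not expressed, and Wnt6 was expressed but did not pass the low-count filter. The log2 fold changes lay between -2.79 and 0.77 with 10 libraries and between -1.37 and 0.96 with 9.

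**Figure D3:**
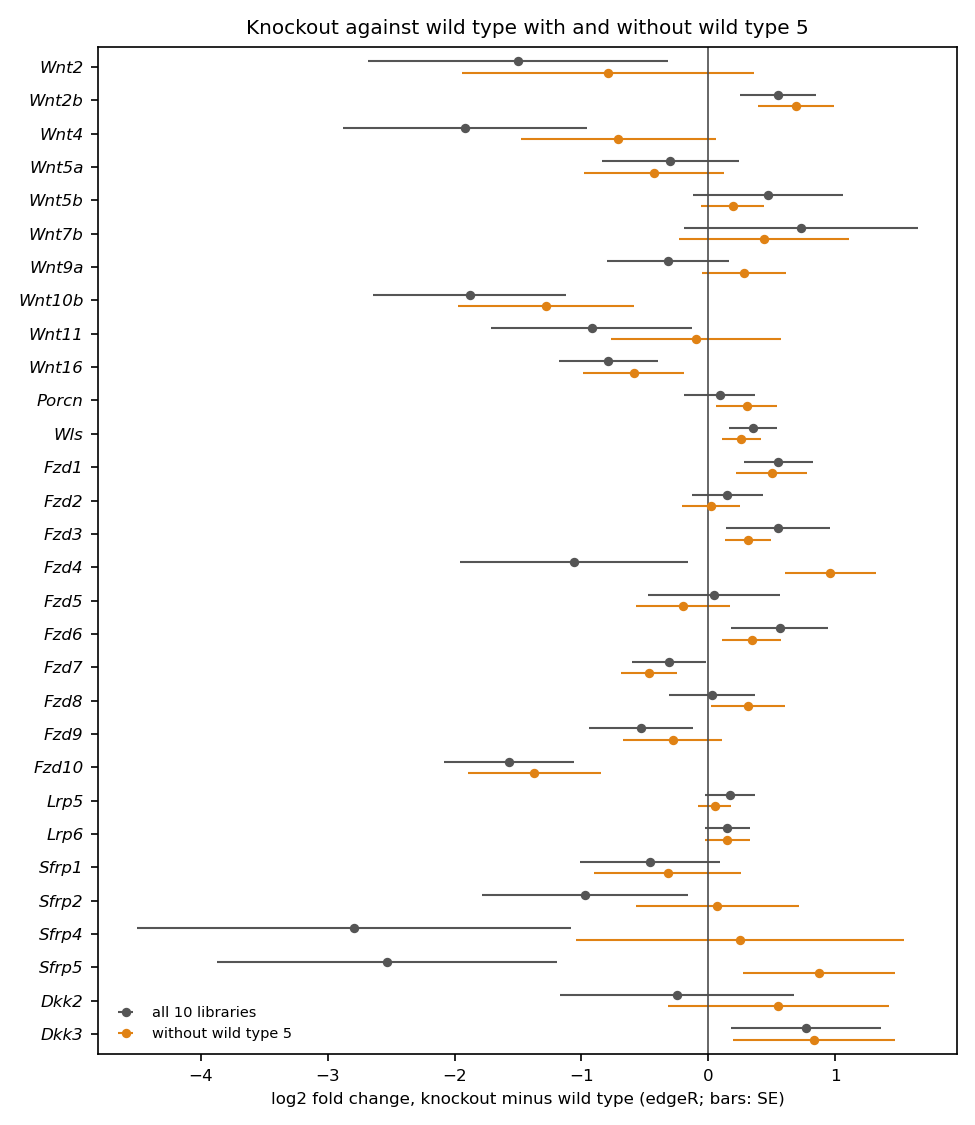
log2 fold change (knockout minus wild type) with its standard error for the 30 tested genes, with all 10 libraries and without wild-type replicate 5. Values for Sfrp4, Sfrp5 and Fzd4, among others, lie left of 0 with all 10 libraries and right of 0 with 9.

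Among the ligands, Wnt2b, a ligand of the beta-catenin branch, had the smallest p of those with a higher value in knockout. It measured 1.01, 0.899, 1.23, 1.84 and 1.97 CPM in knockout tumours and 0.875, 1.04, 0.858, 0.721 and 1.27 CPM in wild-type tumours. Both groups overlapped around 1 CPM, and the 2 highest libraries were knockout replicates 4 and 5. The log2 fold change was 0.55 ± 0.30 (edgeR adjusted p = 0.669) and, without wild-type replicate 5, 0.69 ± 0.30 (edgeR adjusted p = 0.427). Wnt10b, a ligand of the beta-catenin branch that restrains fat cell formation, gave 0.559, 0.341, 0.798, 0.813 and 0.433 CPM across the knockout libraries and 0.663, 4.16, 0.644, 0.333 and 5.2 CPM across the wild-type ones. Only wild-type replicates 2 and 5 lay outside the knockout range on the high side. Knockout against wild type, the log2 fold change was -1.88 ± 0.76 (edgeR adjusted p = 0.669) with all 10 libraries and -1.28 ± 0.69 (adjusted p = 0.511) without wild-type replicate 5. Leaving out wild-type replicate 2 as well turned it to 0.11. Wnt4 stood at 0.879, 1.99, 5.3, 3.16 and 1.33 CPM in the knockout libraries and at 10.9, 4.01, 0.944, 1.05 and 31.2 CPM in the wild-type libraries. Wild-type replicates 1 and 5 were its highest libraries, and wild-type replicates 3 and 4 were among its lowest. The log2 fold change of Wnt4 was -1.92 ± 0.96 (edgeR adjusted p = 0.669) with 10 libraries and -0.71 ± 0.77 (adjusted p = 0.745) with 9, and it was 0.35 when wild-type replicate 1 was also left out. Wnt5a measured 31.7, 37.4, 24.2, 17.1 and 49.6 CPM in knockout tumours and 6, 57.7, 52.3, 58.7 and 22.3 CPM in wild-type tumours. Wild-type replicates 2 to 4 were above all knockout libraries, and wild-type replicate 1 was below them. For Wnt5a the log2 fold change was -0.30 ± 0.54 and, without wild-type replicate 5, -0.43 ± 0.55 (edgeR adjusted p = 0.868 and 0.787). With wild-type replicate 1 also left out it was -0.80. Wnt5b averaged 54.1 ± 18.1 CPM in the knockout libraries and 48.0 ± 7.87 CPM in wild type without replicate 5 (SD, n = 5 and 4), which gave 0.19 ± 0.25 as the log2 fold change (edgeR adjusted p = 0.80). Wnt7b, a ligand needed for lung and kidney development, spanned 10.5 to 48.6 CPM in the knockout libraries and 0.267 to 45.9 CPM in the wild-type libraries, so the groups overlapped over most of that range. Wnt2, a ligand known from lung development, gave 0.133, 2.26, 0.218, 0.181 and 0.352 CPM across the knockout libraries and 0, 0.316, 2.32, 1.75 and 4.67 CPM across the wild-type ones. It was above 1 CPM in knockout replicate 2 and in wild-type replicates 3, 4 and 5. For Wnt2 the log2 fold change was -1.50 ± 1.18 with all 10 libraries and -0.79 ± 1.15 without wild-type replicate 5 (edgeR adjusted p = 0.721 and 0.817). The other tested ligands had log2 fold changes without wild-type replicate 5 of 0.44 ± 0.67 for Wnt7b, 0.28 ± 0.33 for Wnt9a, -0.10 ± 0.67 for Wnt11 and -0.59 ± 0.40 for Wnt16, and edgeR called 0 of them. With that library the values were 0.73 ± 0.92, -0.32 ± 0.48, -0.92 ± 0.79 and -0.79 ± 0.39.

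Both secretion factors were expressed in all libraries. Wls, the carrier of Wnt ligands, stood at 225, 145, 177, 133 and 174 CPM in the knockout libraries and at 127, 151, 143, 154 and 95.1 CPM in the wild-type libraries. Knockout replicates 1, 3 and 5 lay above all wild-type libraries, and knockout replicates 2 and 4 lay within their range. Its log2 fold change was 0.35 ± 0.19 (edgeR adjusted p = 0.669) and 0.26 ± 0.15 without wild-type replicate 5 (adjusted p = 0.524). Porcn, the acyltransferase of the ligands, measured 7.19, 6.98, 10.2, 11.3 and 8.44 CPM in knockout tumours and 5.43, 10.5, 6.89, 6.32 and 12.5 CPM in wild-type tumours, and the groups overlapped. Knockout against wild type, the log2 fold change was 0.09 ± 0.28 with 10 and 0.30 ± 0.24 with 9 libraries (edgeR adjusted p = 0.931 and 0.658).

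The Frizzled receptors had no common direction, with 6 of 10 higher and 4 lower in knockout in either set of libraries and 0 called. Fzd4, which binds Norrin as well as Wnt ligands and is known from blood vessel growth, had the smallest p among those higher without wild-type replicate 5. It gave 17.6, 26.9, 22.9, 41.3 and 14.1 CPM across the knockout libraries and 8.17, 8.87, 17.3, 16.7 and 205 CPM across the wild-type ones. Knockout replicates 1 to 4 lay above wild-type replicates 1 to 4, and only knockout replicate 5 overlapped with them. Wild-type replicate 5 was far above all others, also without its scaling (120 CPM). Fzd4 averaged 24.5 ± 10.6 CPM in knockout (SD, n = 5), 12.7 ± 4.9 CPM in wild type without that library (SD, n = 4) and 51.1 ± 85.9 CPM with it (SD, n = 5). The log2 fold change was 0.96 ± 0.36 without that library (edgeR adjusted p = 0.37) and -1.06 ± 0.90 with it (adjusted p = 0.737). The 7 endothelial markers summed to 151 to 275 CPM in knockout, 68.1 to 219 CPM in wild-type replicates 1 to 4 and 895 CPM in wild-type replicate 5. The 7 adipocyte markers summed to 28.9 to 1730 CPM in knockout, 9.47 to 247 CPM in wild-type replicates 1 to 4 and 11100 CPM in wild-type replicate 5. Their part in the Fzd4 values was not tested. Fzd10, a receptor of the beta-catenin branch, stood at 0.533, 0.31, 0.798, 0.572 and 0.487 CPM in the knockout libraries and at 0.694, 3.23, 1.16, 0.582 and 2.4 CPM in the wild-type libraries. Wild-type replicates 2, 3 and 5 were above all knockout libraries and wild-type replicates 1 and 4 were within their range. The log2 fold change of Fzd10 was -1.57 ± 0.51 (edgeR adjusted p = 0.669) and -1.37 ± 0.52 without wild-type replicate 5 (adjusted p = 0.375). With wild-type replicate 2 also left out it was -0.58 (adjusted p = 0.647).

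Fzd7, the Frizzled receptor with the highest level per kb here and one known from basal mammary cells, measured 115, 121, 81.8, 59.9 and 113 CPM in knockout tumours and 115, 178, 126, 130 and 61 CPM in wild-type tumours. Wild-type replicates 2, 3 and 4 were above all knockout libraries. With all 10 libraries the log2 fold change of Fzd7 was -0.31 ± 0.29 (edgeR adjusted p = 0.752), and without wild-type replicate 5 it was -0.47 ± 0.22 (edgeR adjusted p = 0.448). Fzd1 gave 48, 41.2, 55.2, 37.4 and 50.8 CPM across the knockout libraries and 14.3, 37.1, 41.3, 39.7 and 25.9 CPM across the wild-type ones. Knockout replicates 1, 3 and 5 were above all wild-type libraries. For Fzd1 the log2 fold change was 0.55 ± 0.27 (edgeR adjusted p = 0.669) and 0.50 ± 0.28 without wild-type replicate 5 (adjusted p = 0.518), and 0.25 when wild-type replicate 1 was left out as well. Fzd3 and Fzd6, which are best known from the polarity of cells within a sheet, showed the same 3 knockout libraries on top. Fzd3 stood at 34.1, 27.4, 29.8, 22.5 and 42.9 CPM in the knockout libraries and at 25, 28.1, 22.7, 26.7 and 4.54 CPM in the wild-type libraries, with a log2 fold change of 0.31 ± 0.18 without wild-type replicate 5 (edgeR adjusted p = 0.527). Fzd6 measured 84.6, 46.5, 104, 61.1 and 101 CPM in knockout tumours and 55, 73.9, 59.4, 65.1 and 15.3 CPM in wild-type tumours, and its log2 fold change without wild-type replicate 5 was 0.34 ± 0.23 (edgeR adjusted p = 0.585). Knockout replicates 2 and 4, which lacked this, had adipocyte marker sums of 1550 and 1730 CPM against 28.9 to 86.9 CPM in knockout replicates 1, 3 and 5, and the part of that difference in these values was not tested. The remaining Frizzled genes had log2 fold changes from -0.28 to 0.31 without wild-type replicate 5: Fzd9 at -0.28 ± 0.39, Fzd5 at -0.20 ± 0.37, Fzd2 at 0.02 ± 0.23 and Fzd8 at 0.31 ± 0.29.

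Of the LRP co-receptors, Lrp5 varied less than Lrp6 over the 9 libraries, with coefficients of variation of 13.3% and 19.5%. Lrp5 gave 181, 128, 167, 147 and 184 CPM across the knockout libraries and 178, 173, 139, 140 and 87.5 CPM across the wild-type ones. Its log2 fold change was 0.05 ± 0.13 without wild-type replicate 5 (edgeR adjusted p = 0.903). Lrp6 stood at 165, 148, 143, 96.1 and 171 CPM in the knockout libraries and at 110, 170, 122, 125 and 122 CPM in the wild-type libraries, and the groups overlapped over their whole range. Knockout against wild type, the log2 fold change was 0.15 ± 0.18 in both sets of libraries (edgeR adjusted p = 0.801 and 0.775).

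With all 10 libraries, 4 of the 4 Sfrp genes of the set had lower values in knockout (median log2 fold change -1.75). Without wild-type replicate 5 this held for 1 of 4 (median 0.16). Frzb, a secreted Wnt inhibitor whose symbol the name rule did not match, is described further below. Sfrp4, an inhibitor known from bone, measured 2.93, 8.5, 1.78, 1.63 and 1.35 CPM in knockout tumours and 0.0302, 0, 7.68, 3.24 and 101 CPM in wild-type tumours. Wild-type replicate 5 was far above every other library, and the other 9 overlapped. The log2 fold change was -2.79 ± 1.71 with that library and 0.25 ± 1.29 without it (edgeR adjusted p = 0.677 and 0.956). The latter turned to -0.50, -0.16 and -0.17 when knockout replicate 2, wild-type replicate 1 or wild-type replicate 2 was also left out, and it reached 1.58 without wild-type replicate 3. Sfrp5, an inhibitor secreted by fat tissue, gave 0.32, 0.713, 0.254, 1.42 and 0.216 CPM across the knockout libraries and 0.241, 0.365, 0.215, 0.471 and 16 CPM across the wild-type ones. The fitted log2 fold change was -2.53 ± 1.34 with all 10 libraries and 0.87 ± 0.60 without wild-type replicate 5 (edgeR adjusted p = 0.669 and 0.596). Sfrp5 was above 1 CPM in knockout replicate 4 and wild-type replicate 5, 2 of the 3 libraries with the highest adipocyte marker sums, and whether those cells carry it was not tested. Sfrp1, an inhibitor often silenced in breast cancer, stood at 55.9, 43.5, 108, 99.5 and 73.1 CPM in the knockout libraries and at 253, 32.9, 46.7, 51.9 and 139 CPM in the wild-type libraries. Wild-type replicate 1, which is poor in fibroblast markers, was its highest library and wild-type replicate 2 its lowest. Sfrp2, a fibroblast-derived inhibitor, measured 9.88, 23.9, 12.3, 12.6 and 14.9 CPM in knockout tumours and 1.24, 11.8, 28.1, 15.7 and 87.9 CPM in wild-type tumours, and its lowest library was wild-type replicate 1. The log2 fold changes without wild-type replicate 5 were -0.32 ± 0.58 for Sfrp1 and 0.07 ± 0.64 for Sfrp2 (edgeR adjusted p = 0.86 and 0.975). When wild-type replicate 1 was also left out, they were 0.80 for Sfrp1 and -0.32 for Sfrp2.

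Of the Dickkopf proteins, Dkk3, a divergent member that does not act like the others on LRP co-receptors, gave 17.4, 25.4, 27.7, 28 and 26.6 CPM across the knockout libraries and 1.03, 11.6, 20.7, 23.6 and 16.5 CPM across the wild-type ones. Knockout replicates 2 to 5 were above all wild-type libraries, and knockout replicate 1 overlapped with them. Its log2 fold change was 0.77 ± 0.59 with all 10 libraries and 0.83 ± 0.64 without wild-type replicate 5 (edgeR adjusted p = 0.713 and 0.639). Dkk2, an inhibitor of LRP co-receptors, stood at 5.27, 5.55, 1.96, 3.65 and 15.1 CPM in the knockout libraries and at 0.121, 3.57, 6.72, 6.99 and 20.2 CPM in the wild-type libraries. The groups overlapped, with a log2 fold change of 0.55 ± 0.87 without wild-type replicate 5 (edgeR adjusted p = 0.835). Dkk2, Dkk3 and Sfrp2 had their lowest value in wild-type replicate 1, where fibroblast markers summed to 210 CPM, and the part of fibroblasts in these values was not tested.

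A comparison of libraries within the groups showed where these genes vary most. Among the 30 expressed genes, wild-type replicate 5 was the highest of all 10 libraries for 13 and the lowest for 8. In the other 9 libraries wild-type replicate 1 was lowest for 12, among them Wnt2, Wnt5a, Wnt11, Wls, Fzd1 and Dkk3, and highest for 4 (Wnt4, Fzd5, Fzd9 and Sfrp1). No other of the 9 libraries was lowest for more than 5.

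**Figure D4:**
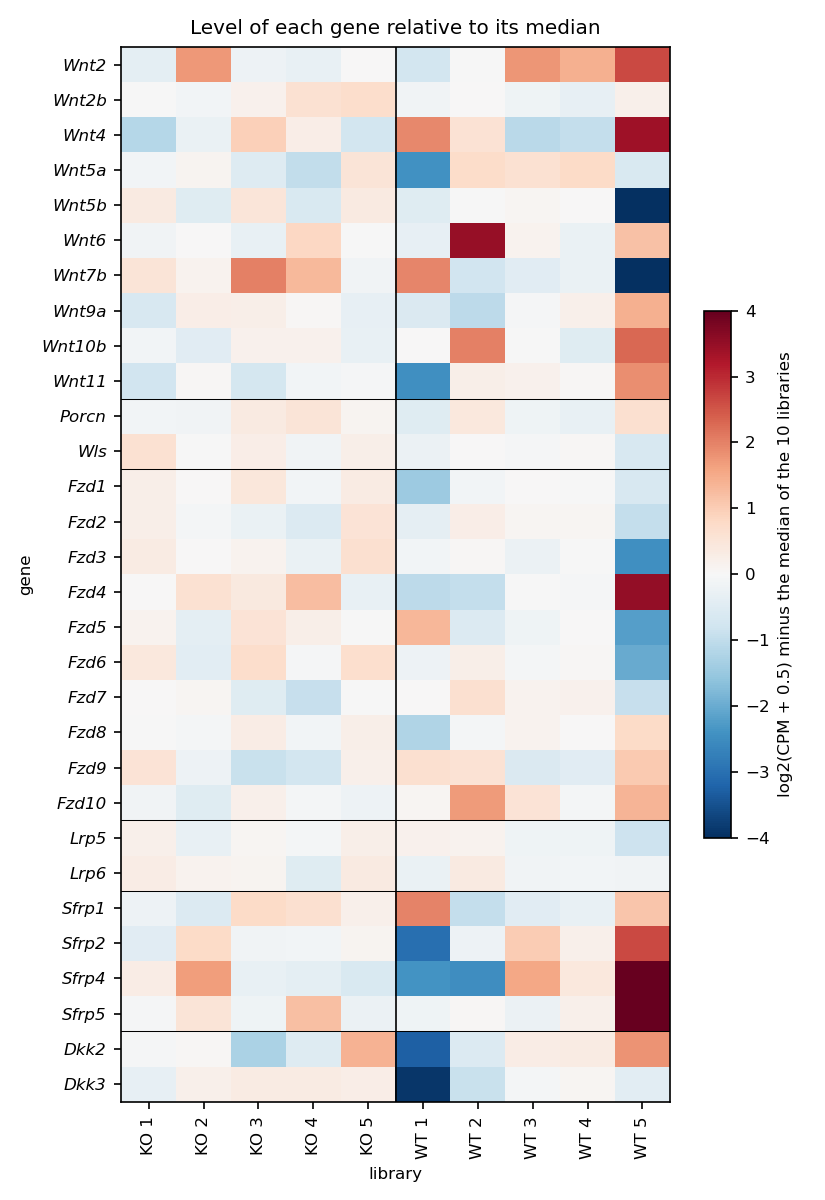
Level of each expressed gene relative to its median over the 10 libraries, as a difference in log2 CPM with a small constant added, cut at 4 in either direction. Columns are the libraries, and wild-type replicate 5 holds the highest value of 13 and the lowest of 8 of the 30 genes.

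In wild-type replicate 2 several ligands that were near 0 in most other libraries were present. Wnt6, a ligand of the beta-catenin branch that is made in epithelia, measured 0.133, 0.217, 0.0726, 0.753 and 0.189 CPM in knockout tumours and 0.0603, 7.44, 0.279, 0.0832 and 1.07 CPM in wild-type tumours. The 7.44 CPM of wild-type replicate 2 came from 306 counts, and the next library was wild-type replicate 5. Wnt10a, its neighbour on chromosome 1, stood at 2.92 CPM (120 counts) against 0.027 to 0.267 CPM in the other 9. Wnt8a reached 1.6 CPM (66 counts) against at most 0.062 CPM. Wnt10b reached 4.16 CPM (171 counts), below the 5.2 CPM of wild-type replicate 5 and above the 0.813 CPM maximum of the other 8. Its neighbour on chromosome 15, Wnt1, was at 0.0243 CPM, under the level of 3 counts. Fzd10 and Fzd7 also had their highest value in this library, at 3.23 and 178 CPM. Wnt11, a ligand of cell movements, was at 3.48 CPM, the highest of the 9 libraries, while wild-type replicate 5 had 11.9 CPM. Per kb, Wnt6, Wnt10b, Wnt10a and Wnt8a made up 8.94%, 3.22%, 3.12% and 2.42% of the ligands in this library.

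The 5 expressed genes with their highest value in wild-type replicate 2 among the 9 libraries (Wnt10b and Wnt11 were higher still in wild-type replicate 5) are shown by their promoter windows, to see whether they share a simple sequence, from 250 bases before to 50 after the annotated start. They are RefSeq sequences of build GRCm38.p6 (the counts were made on GRCm39, so the coordinates apply to GRCm38.p6 alone), 5′ to 3′ on the strand of the gene, and capitals mark matches to CTTTGAT or CTTTGTT, core motifs bound by TCF and LEF factors, on either strand.
Wnt6, chr1:74771642-74771941, plus strand: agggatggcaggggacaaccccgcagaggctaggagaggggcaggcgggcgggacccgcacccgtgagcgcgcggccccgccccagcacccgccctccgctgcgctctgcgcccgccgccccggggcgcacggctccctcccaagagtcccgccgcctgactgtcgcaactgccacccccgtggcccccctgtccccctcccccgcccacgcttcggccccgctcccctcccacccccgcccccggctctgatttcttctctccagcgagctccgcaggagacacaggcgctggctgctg
Wnt10b, chr15:98778101-98778400, minus strand: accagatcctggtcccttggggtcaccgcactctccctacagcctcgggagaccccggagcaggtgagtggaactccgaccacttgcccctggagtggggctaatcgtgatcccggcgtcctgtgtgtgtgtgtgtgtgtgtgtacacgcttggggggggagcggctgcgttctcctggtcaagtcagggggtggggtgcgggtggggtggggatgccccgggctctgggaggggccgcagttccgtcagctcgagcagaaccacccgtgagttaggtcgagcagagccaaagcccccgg
Fzd10, chr5:128600856-128601155, plus strand: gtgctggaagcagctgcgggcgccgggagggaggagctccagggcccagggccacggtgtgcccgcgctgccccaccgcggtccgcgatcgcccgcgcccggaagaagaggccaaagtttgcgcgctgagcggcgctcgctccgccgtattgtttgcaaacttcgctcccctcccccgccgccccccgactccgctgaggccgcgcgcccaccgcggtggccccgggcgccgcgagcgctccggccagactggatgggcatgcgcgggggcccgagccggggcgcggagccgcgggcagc
Fzd7, chr1:59481897-59482196, plus strand: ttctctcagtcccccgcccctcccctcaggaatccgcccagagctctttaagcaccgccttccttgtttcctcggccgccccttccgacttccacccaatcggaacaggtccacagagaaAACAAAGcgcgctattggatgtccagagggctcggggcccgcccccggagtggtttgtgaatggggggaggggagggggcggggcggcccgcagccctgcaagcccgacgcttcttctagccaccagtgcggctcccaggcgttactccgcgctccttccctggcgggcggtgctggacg
Wnt11, chr7:98834862-98835161, plus strand: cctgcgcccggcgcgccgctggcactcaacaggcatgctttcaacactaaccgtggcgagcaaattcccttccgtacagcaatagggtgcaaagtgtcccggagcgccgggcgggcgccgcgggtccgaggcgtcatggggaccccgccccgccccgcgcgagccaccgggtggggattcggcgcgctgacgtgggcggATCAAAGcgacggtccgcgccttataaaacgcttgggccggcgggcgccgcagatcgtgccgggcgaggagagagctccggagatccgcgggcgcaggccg
Fzd7 held AACAAAG 130 bases before its start and Wnt11 held ATCAAAG 51 bases before it, and no match to these letters stood in the windows of Wnt6, Wnt10b and Fzd10. A second window of Wnt11 held none either. Either motif was present in 3066 of 32851 promoters of the same length, 9.33%, and in 5 of the 29 windows of the 26 genes of the set that matched the promoter table. A match is only a description of the letters.

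Many genes known to be induced by beta-catenin signalling were also highest in wild-type replicate 2, a library singled out after its values were seen. Axin2, which limits the signal it is induced by, measured 2.32, 4.4, 3.7, 2.68 and 4.54 CPM in knockout tumours and 0.633, 52.3, 4.44, 3.35 and 14.1 CPM in wild-type tumours. Wild-type replicate 2 was thus 11.5 times the next of the 9 libraries. Notum, a secreted enzyme that removes the lipid from Wnt ligands, was at 3.52 CPM there against at most 0.135 CPM elsewhere. Apcdd1, an inhibitor of the pathway at the cell surface, was at 41 CPM against 3.89 to 20.8 CPM in the other libraries, Sostdc1, a secreted regulator of Wnt and BMP signals, at 23.8 CPM against at most 4 CPM, and Nkd1, an inhibitor in the cytoplasm, at 10.3 CPM against at most 6.74 CPM. Of 15 tested genes on the list of feedback targets, 11 were highest of the 9 libraries in wild-type replicate 2 (73.3%), against 11.6% of the 19016 genes tested. Lgr5, Wif1, Cd44 and Ccnd1 were not highest there. Rnf43, Ascl2 and Myc were, but at only 1.05, 1.08 and 1.09 times the next of the 9 libraries. Sostdc1 is not on that list. Of the 9 basal or myoepithelial markers, the keratins and Trp63 had their highest value in the same library: Krt5 stood at 260 CPM against 0.513 to 130 CPM, Krt14 at 247 CPM against 1.87 to 138 CPM, Krt17 at 104 CPM against 0.801 to 78.8 CPM and Trp63 at 124 CPM against 9.38 to 47.5 CPM. The other 5 markers did not: Acta2 (37.7 CPM) and Myh11 (4.45 CPM) were below all knockout libraries (43.1 to 86.8 CPM and 5.25 to 21.4 CPM), and Cnn1 (1.77 CPM), Mylk (32.3 CPM) and Oxtr (6.95 CPM) lay within the knockout range. The 9 basal markers summed to 819 CPM there, against 220 to 403 CPM in knockout and 200 to 587 CPM in the other wild-type libraries. Their part in the values of the Wnt genes was not tested.

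**Figure D5:**
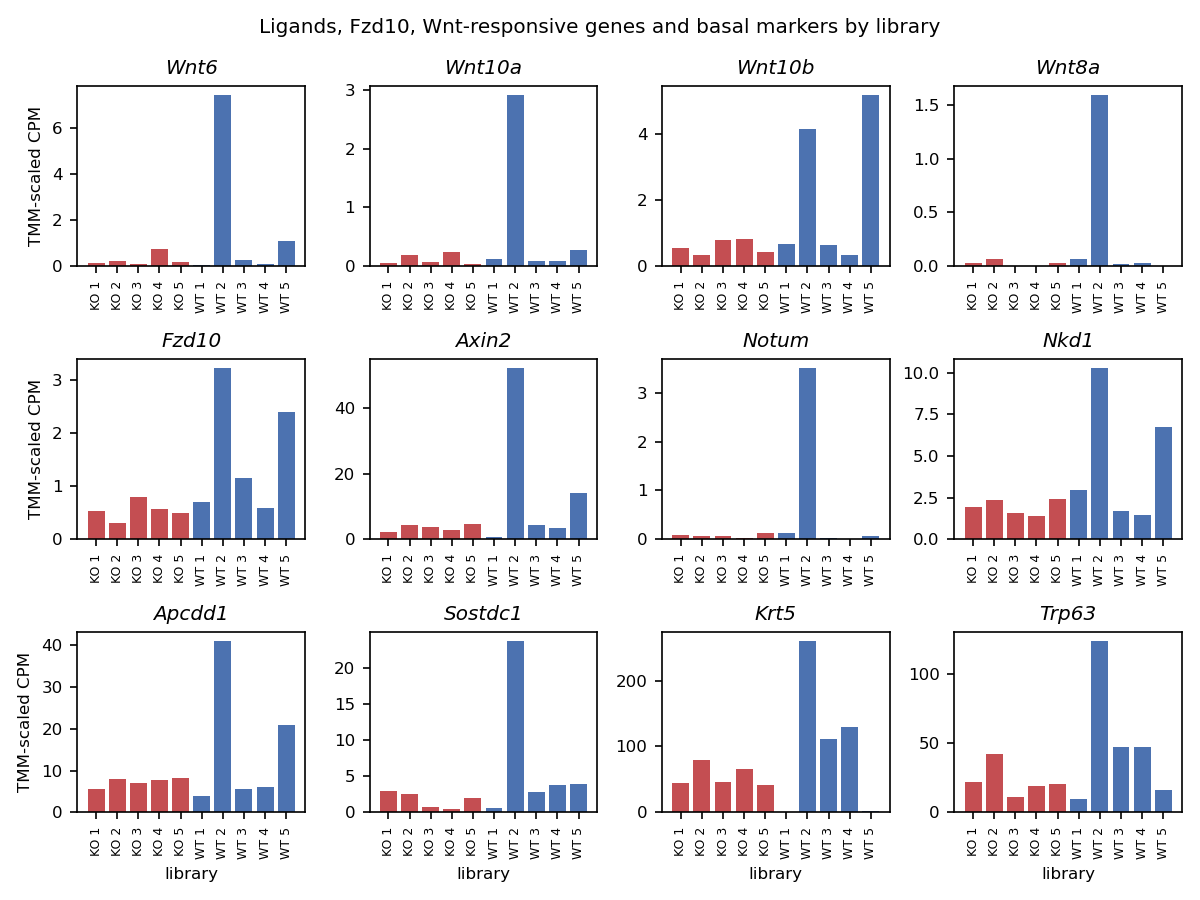
CPM in each library of 5 Wnt ligands and receptors, 5 inhibitors or feedback targets of the pathway, and 2 markers of basal epithelium, with a bar for each library and axes starting at 0. Wild-type replicate 2 has the tallest bar in every panel except that of Wnt10b, where wild-type replicate 5 is higher. The panels were picked with these values known. Feedback targets and basal markers that were not highest in wild-type replicate 2, such as Lgr5, Ccnd1, Acta2 and Myh11, are not drawn.

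Of the other genes of the pathway, edgeR called 0 in either direction on each of the 4 lists, with or without wild-type replicate 5. Without it, an unadjusted p under 0.05 was found for 0 of 7 R-spondin genes, 4 of 18 other regulators, 3 of 20 core genes and 2 of 15 feedback targets, against 11.6% of all genes. The list of feedback targets shares genes with the other lists, such as Axin2, Lgr5 and Apcdd1, so the counts per list are not separate. It also names Dkk1, which belongs to the set and was not tested. Of the 9 R-spondins, their receptors and the ligases they control, 7 were tested. With all 10 libraries 4 were higher and 3 lower in knockout (median log2 fold change 0.09), and without wild-type replicate 5 there was 1 higher against 6 lower (median -0.16). Of all genes, 56.2% were lower with 10 libraries and 46.8% with 9. Lgr5, a receptor of R-spondins and the marker of several stem cells, differed by 0.63 on the log2 scale without wild-type replicate 5 (edgeR adjusted p = 0.624). Of the 23 other receptors and secreted regulators, 18 were tested, with 8 higher and 10 lower with 10 libraries (median -0.04) and 11 higher and 7 lower with 9 (median 0.13). Frzb, a secreted Wnt inhibitor, gave 1.12, 0.868, 1.16, 0.844 and 1.6 CPM across the knockout libraries and 0.0603, 0.219, 0.558, 0.554 and 49.9 CPM across the wild-type ones. Without wild-type replicate 5 all knockout libraries were above the wild-type ones, and the log2 fold change was 1.67 ± 0.53 (edgeR adjusted p = 0.317), while with that library it was -3.18 ± 1.60 (adjusted p = 0.669). Tmem132a, a protein that stabilises Wls, stood at 25.7, 35.5, 18.4, 15.8 and 34.1 CPM in the knockout libraries and at 36.3, 41.2, 40, 39.2 and 5.47 CPM in the wild-type libraries. Without wild-type replicate 5 all knockout libraries were below the wild-type ones, and the log2 fold change was -0.58 ± 0.23 (edgeR adjusted p = 0.396), against -0.32 ± 0.47 with it. Ror1, a receptor of Wnt5a, had -0.49 ± 0.20 on the log2 scale without wild-type replicate 5 (edgeR adjusted p = 0.407). Among the 20 genes of the cytoplasmic and nuclear core, 12 were higher and 8 lower with 10 libraries (median 0.07) and 9 higher and 11 lower with 9 (median -0.02), where Apc was at 0.24 and Dvl3 at 0.30 (edgeR adjusted p = 0.376 and 0.413). Of 15 tested feedback targets, 8 were higher and 7 lower with 10 libraries (median 0.07), and 3 were higher and 12 lower with 9 (median -0.17). Of these 15, 11 had their highest value of the 9 libraries in wild-type replicate 2. The part of that library in this count and median was not tested. Ccnd1, the gene of cyclin D1, measured 119, 87.4, 95.5, 84.4 and 73.3 CPM in knockout tumours and 118, 121, 130, 156 and 13.4 CPM in wild-type tumours, a log2 fold change of -0.50 ± 0.15 without wild-type replicate 5 and -0.23 ± 0.48 with it (edgeR adjusted p = 0.309 and 0.887). Tnfrsf19 had -1.45 ± 0.50 (edgeR adjusted p = 0.345) without that library and Axin2 -2.08 ± 0.99 (edgeR adjusted p = 0.461). Wild-type replicate 2 was the highest library of the 9 for both. For Tnfrsf19, wild-type replicates 2, 3 and 4 (68.7, 47.3 and 40.2 CPM) were above all knockout libraries (at most 31.4 CPM). Wild-type replicate 1 (17.9 CPM) lay within the knockout range. The 8 proliferation markers summed to 337 to 679 CPM in knockout, 822 to 1000 CPM in wild-type replicates 1 to 4 and 53 CPM in wild-type replicate 5. Their part in the Ccnd1 values was not tested.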

How the data were processed

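The values the authors deposited were read counts per gene, whole numbers without normalization, in 1 column for each library. Tools named in the submitters' processing notes are FastQC, STAR, featureCounts and DESeq2, and the build is GRCm39. The tool versions, the annotation and whether counting used strand were not given in the sources used here. Libraries were made by poly(A) selection with a stranded kit, per the labels' protocols. Exons of 6 of the 41 genes overlap a gene on the opposite strand (Wnt5a, Wnt7b, Wnt11, Fzd5, Fzd6 and Sfrp2), and their counts could hold reads of that partner if strand was not used.

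Protein-coding status and merged exon lengths came from a GRCm38 annotation, an older build than that of the counts. edgeR 4.0.16 (R 4.3.3) was run with TMM scaling, filterByExpr and the robust quasi-likelihood test on the whole table, with all 10 libraries (18577 genes) and without wild-type replicate 5 (19016 genes). Calls needed an adjusted p (Benjamini-Hochberg, over all tested genes) under 0.05. CPM used the TMM-scaled library sizes of the 10 libraries throughout. The same comparisons were repeated with DESeq2 1.42.0 and with limma-voom and sample quality weights (limma 3.58.1). Further edgeR runs used RLE scaling, no low-count filter, 10 counts required in every library, or sums per leading number. Others left out each library in turn. The run with the leading number as a random block used limma-voom without sample quality weights. The labels do not tie libraries to animals. The p-values thus reflect the spread among these libraries, which may be technical in part. Genes given in every library were up to 5 expressed genes with the smallest p in each direction, those with the highest CPM in each role, those past 1 CPM in 1 group only, and up to 4 genes of each other pathway list. Wnt8a, Wnt10a and the feedback targets of wild-type replicate 2 were added after their values were seen. The genes and lists were chosen with earlier results of these data known. The scripts were tested on simulated data.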

Additional observations from a re-analysis of the deposited data

Results flagged for a closer look

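Values that lay far from the rest of their group, by the gap to the nearest other library relative to the range of the group, were looked for in 30 genes and 3 groups (knockout, wild type, and wild type without replicate 5). Of 90 checks 20 passed Dixon's 95% critical value, which about 1 of 20 checks pass by chance when values are normally distributed. The 90 checks are not separate, since both wild-type groups share 4 libraries, and 2 of the 20 (Wnt6 and Wnt7b) repeat a value already counted. In knockout these were Wnt2 at 2.26 CPM and Sfrp4 at 8.5 CPM in replicate 2, Wnt6 at 0.753 CPM in replicate 4, Dkk2 at 15.1 CPM in replicate 5 and Dkk3 at 17.4 CPM in replicate 1. In wild type the high values were Wnt11 (11.9 CPM), Fzd4 (205 CPM), Sfrp4 (101 CPM) and Sfrp5 (16 CPM) in replicate 5, with Fzd3 (4.54 CPM) as the low one, Wnt7b (45.9 CPM) in replicate 1, and Wnt6 (7.44 CPM) and Lrp6 (170 CPM) in replicate 2. Without replicate 5, replicate 1 was high for Wnt7b (45.9 CPM) and Sfrp1 (253 CPM) and low for Wnt5a (6 CPM), Wnt11 (0.121 CPM) and Fzd1 (14.3 CPM), and replicate 2 was high for Wnt6 (7.44 CPM) and Wnt10b (4.16 CPM).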

How the results depend on the processing

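Of the 41 genes, 30 were expressed by group means and 19 in every library. Called Wnt genes were 0 under each alternative run, in either set of libraries. Over all genes edgeR called 0 with 10 libraries against 54 by DESeq2 and 17 by limma-voom. Without wild-type replicate 5 it called 2 against 463 and 143, and 0 on sums per leading number. limma-voom with that number as a random block, in place of the sample quality weights, also called 0. Rhbdd1 was called by DESeq2 (-1.06) and limma-voom (-0.95). The direction held under all alternatives for 16 of the 30 tested genes with 10 libraries and for 17 with 9. It turned at least once for 14 and 13, and the cause was not tested. With 10 libraries limma-voom turned Wnt4 (0.17), Fzd4 (0.34), Fzd9 (0.41), Sfrp1 (0.33), Sfrp4 (0.39), Sfrp5 (0.18) and Dkk2 (0.29). The block turned Wnt5a (to 0), Fzd4 (0.04), Sfrp4 (1.01) and Dkk2 (0.52), and the sums turned Porcn (-0.12) and Fzd8 (-0.15). With 9 libraries limma-voom turned Wnt4 (0.19), Wnt9a (-0.16), Fzd5 (0.11), Fzd9 (0.42), Sfrp1 (0.34) and Sfrp2 (-0.32), and the block turned Wnt11 (0.51) and Sfrp1 (0.08). Leaving out 1 library at a time from the 10 turned Wnt9a (range -0.53 to 0.28), Porcn (-0.03 to 0.30), Fzd2 (-0.02 to 0.27), Fzd4 (-1.33 to 0.96), Fzd5 (-0.20 to 0.65), Fzd8 (-0.18 to 0.31), Sfrp1 (-0.69 to 0.17), Sfrp2 (-1.27 to 0.07), Sfrp4 (-3.53 to 0.25), Sfrp5 (-3.17 to 0.87) and Dkk2 (-0.86 to 0.55). Of these runs, only that without wild-type replicate 5 turned Wnt9a (0.28), Fzd4, Sfrp2, Sfrp4, Sfrp5 and Dkk2. Fzd5 turned without it (-0.20) and also without knockout replicate 3, wild-type replicate 2 or wild-type replicate 3. From the 9 it turned Wnt4 (-1.17 to 0.35), Wnt7b (-0.01 to 1.54), Wnt10b (-1.60 to 0.11), Wnt11 (-0.49 to 0.10), Fzd2 (-0.15 to 0.13), Fzd5 (-0.42 to 0.36), Lrp5 (0 to 0.12), Sfrp1 (-0.61 to 0.80), Sfrp2 (-0.32 to 0.64), Sfrp4 (-0.50 to 1.58) and Dkk2 (-0.07 to 0.87). No paired analysis was possible because the labels give no replicate numbers and no leading number of a library name occurs in both genotypes. Levels under 3 counts in a library were not told from 0.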
